A study of Mus musculus with 6 samples.

Results

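The complement system was followed in mouse liver through 35 genes of its components, regulators and receptors, chosen by symbol, out of 54232 genes in the count tables. All 35 symbols matched a single gene and all 35 passed the filter on low counts. They were divided by the cells known as their main source, with 22 made mainly by hepatocytes, 8 mainly by macrophages and other myeloid cells, and 5 of mixed or other source. The livers came from chow-fed male C57BL/6 mice aged 8 to 10 weeks, in 2 groups of 3 RNA-sequencing libraries. Both groups lacked FXR, a nuclear receptor for bile acids whose gene is Nr1h4. The control group (SKO, Fxr-/-Xbp1fl/fl) carried floxed Xbp1. The other group (DKO, Fxr-/-Xbp1LKO) also lacked, in the liver, Xbp1, whose product activates genes of the unfolded protein response. FXR loss is thus shared by both groups, and the comparison of DKO with SKO concerns loss of hepatic XBP1 on that background. The sources used here do not give the recombinase, its promoter or the liver cells it reaches. Titles of all 3 DKO libraries and 1 SKO library carry a pair of numbers, whose meaning is not given, so such a library may hold more than 1 animal. The labels tie no library to a single mouse, and p-values therefore speak only of variation among these libraries, part of which may be technical.

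Complement is a cascade of plasma proteins, most of them secreted by hepatocytes, that marks and lyses microbes and clears debris. Recognition molecules (C1q, mannose-binding lectins, ficolins) activate serine proteases, these build the convertases that cleave C3 and C5, and cleaved C5 starts the assembly of the membrane attack complex from C6, C7, C8 and C9. Soluble and membrane-bound regulators hold the cascade in check on host cells, and receptors on myeloid cells respond to the fragments released.

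Depth ranged from 16966422 to 21107674 counts per library, and a count of 0 allows a level of up to 3 counts, which corresponded to 0.126 to 0.191 CPM (normalised counts scaled to a library of 1000000). Such limits cover counting error only. Xbp1 itself was 225 to 261 CPM in SKO and 67.1 to 95.8 CPM in DKO (adjusted p = 0.000146 by edgeR), while Nr1h4 was counted in both groups at 92.8 to 105 CPM, and a count over the whole gene does not show whether the deleted exons are there. The complement genes together took 1.52% to 1.96% of all counts in SKO and 1.42% to 1.71% in DKO, ranges that overlap. C3 alone made up 29.1% to 36.7% of these counts in any library. With total counts in place of TMM factors the median gene stood at 0.226 rather than 0.0059 (log2, DKO over SKO), so changes here are given relative to that gene. In bulk liver RNA, fewer cells of a type and less RNA per cell cannot be told apart.

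Of the 35 genes, 16 were called different between the groups, at an adjusted p under 0.05 in edgeR's quasi-likelihood test, with 7 higher and 9 lower in DKO. Across all 13986 genes tested, 20.0% were called, 10.3% higher and 9.70% lower. The 35 genes and the lists below were chosen with earlier results of these data known. Their counts beside these shares are therefore a description and no independent test. The median log2 fold change was -0.11 for the 35 genes and 0.0059 for all genes tested. One gene, Itgam, reached the count level of the filter in the DKO libraries alone, and without it 15 of 34 were called. The 2 sources went opposite ways. Of the 22 hepatocyte-made genes, 9 were lower and 1 higher, with a median of -0.32. Of the 8 myeloid-made genes, 6 were higher and none lower, with a median of 0.80, or 5 of 7 and a median of 0.72 without Itgam. None of the 5 genes of other source was called. By roles, the lower genes lay mostly in the terminal pathway (5 of 7), and the higher ones were the 3 C1q chains, the 3 receptors and the C1 inhibitor gene Serping1.

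**Figure D1:**
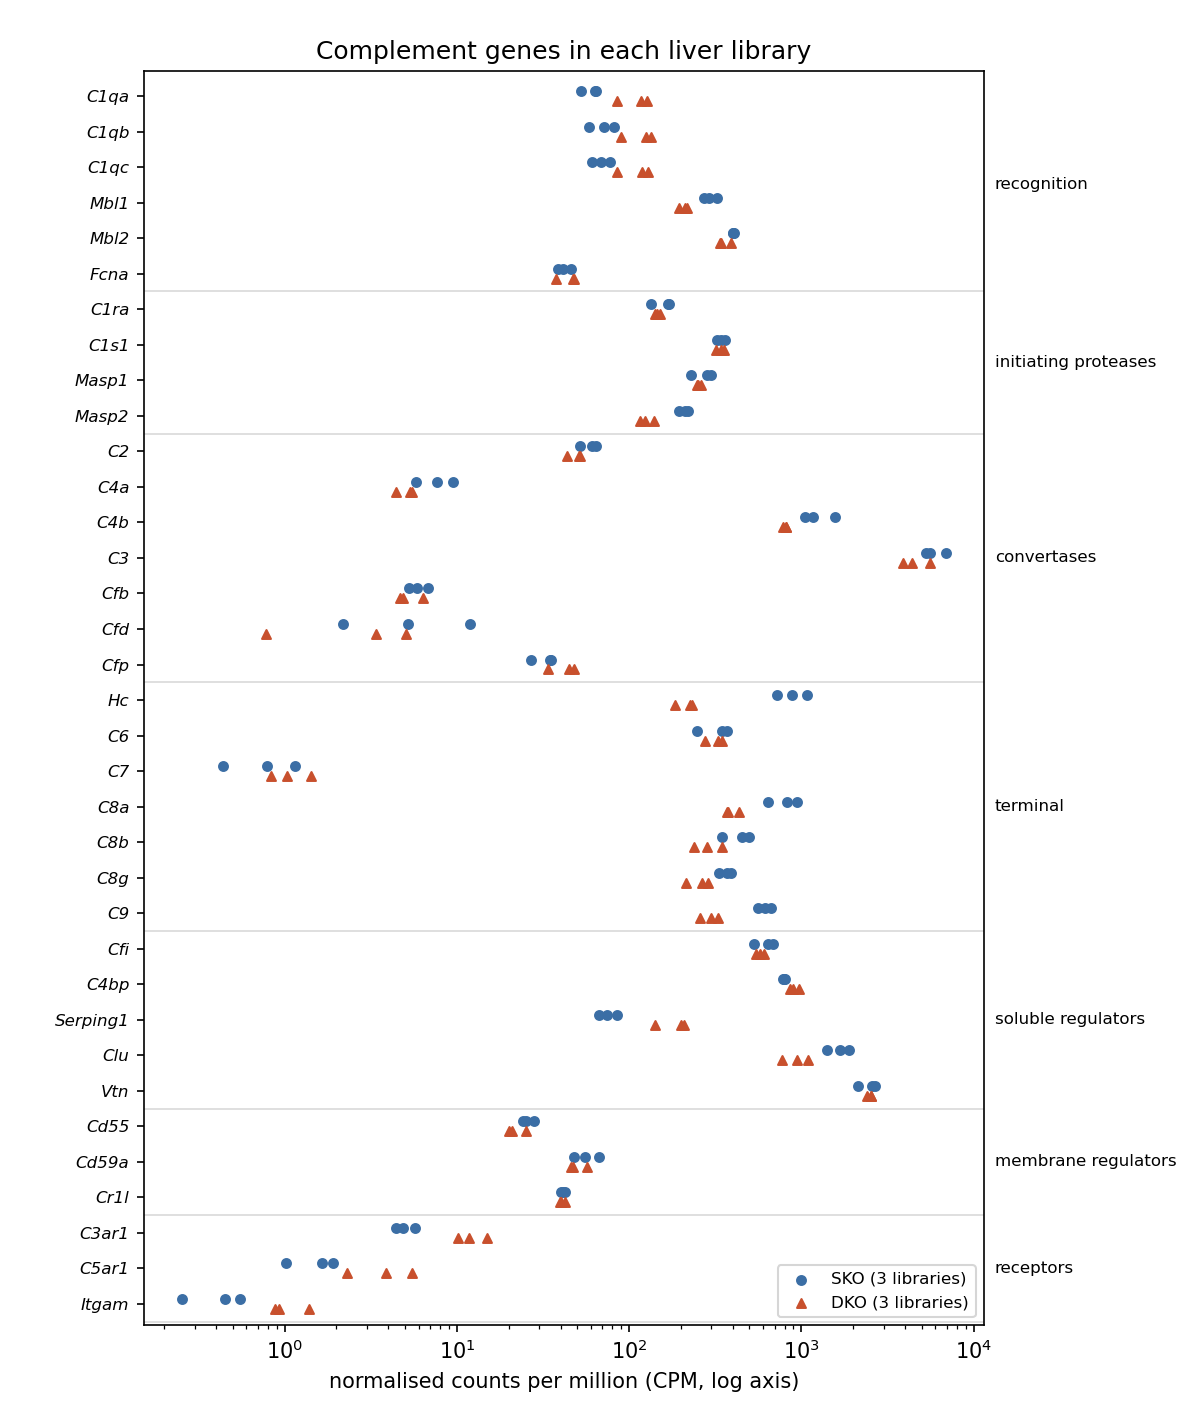
Normalised CPM of the 35 complement genes on a log axis, 1 point per library, with SKO as circles and DKO as triangles, grouped by role. DKO lies wholly above SKO for 8 of the 35 genes and wholly below for 12, where 39.6% of all genes tested do not overlap. Among those without overlap are Hc (721.7 to 1077 against 185 to 231 CPM), C8a, C9, Masp2, Serping1 and the 3 receptors. Of the receptors, Itgam reached the count level of the filter in DKO alone. Vtn, C6, C1s1 and Cr1l overlap.

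For the hepatocyte-made genes with the largest falls and an entry in the RefSeq promoter table (build GRCm38.p6), the bases upstream of the annotated starts are shown in the direction of the gene. Of the 35 genes 26 had an entry. The windows are chr2:35061439-35061662 for Hc, on the minus strand, chr4:104876399-104876648 for C8a, on the minus strand, chr15:6445096-6445326 for C9, on the plus strand, and chr4:148602294-148602543 for Masp2, on the plus strand. Windows hold up to 250 bases, and those of the 26 genes ran from 0 to 250, because bases after either annotated start were left out. Capitals mark matches on either strand to 1 of 5 strings.
Hc: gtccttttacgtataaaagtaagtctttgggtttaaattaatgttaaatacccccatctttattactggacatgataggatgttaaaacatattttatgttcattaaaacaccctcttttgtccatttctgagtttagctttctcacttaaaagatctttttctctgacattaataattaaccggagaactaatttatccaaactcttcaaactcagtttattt
C8a: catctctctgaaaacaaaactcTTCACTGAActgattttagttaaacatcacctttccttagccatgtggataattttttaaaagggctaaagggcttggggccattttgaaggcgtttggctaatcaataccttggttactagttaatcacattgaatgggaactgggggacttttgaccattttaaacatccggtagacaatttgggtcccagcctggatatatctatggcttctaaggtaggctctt
C9: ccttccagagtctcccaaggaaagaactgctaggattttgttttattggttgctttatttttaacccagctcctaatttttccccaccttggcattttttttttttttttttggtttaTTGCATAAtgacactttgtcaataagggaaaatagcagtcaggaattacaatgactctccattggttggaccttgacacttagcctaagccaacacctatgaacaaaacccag
Masp2: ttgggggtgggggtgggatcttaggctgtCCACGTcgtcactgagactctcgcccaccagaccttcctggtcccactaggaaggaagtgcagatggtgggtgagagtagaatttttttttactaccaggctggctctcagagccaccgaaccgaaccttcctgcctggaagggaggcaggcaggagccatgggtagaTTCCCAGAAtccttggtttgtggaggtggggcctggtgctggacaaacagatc
The strings were CCACGT, letters within the XBP1-binding element of unfolded protein response promoters, CAAAGTCCA for HNF4, the palindromic consensus of HNF1, TTGCNNAA for C/EBP and TTCNNNGAA for STAT factors. In the 250 bases upstream of all 32851 promoters of the table they occurred in 6.91%, 0.384%, 0.00913%, 9.56% and 7.02%. These windows were left uncut, whereas some of those of the 26 genes are shorter, so the shares are no exact yardstick. Among the 26 complement genes CCACGT occurred in 1, Masp2, TTGCNNAA in 3 and TTCNNNGAA in 3, and the other strings in 0. Masp2 held CCACGT and TTCNNNGAA, C8a held TTCNNNGAA, C9 held TTGCNNAA, and the window of Hc held none of the 5. A match of letters describes the window and not a site in use.

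Recognition molecules split by source. The mannose-binding lectins, collectins that bind microbial sugars, are made by hepatocytes. Mbl1 (chromosome 14, 41151458 to 41159601 in mm10) was 323, 272 and 293 CPM in SKO and 196, 218 and 211 CPM in DKO. Each DKO library lay below each SKO library, and Mbl1 fell by 0.50 ± 0.09 (log2 with its SE, adjusted p = 0.00495 by edgeR). Mbl2 (chromosome 19, 30232942 to 30239687), the second such lectin, was 401, 402 and 406 CPM in SKO and 341, 335 and 389 CPM in DKO. Its groups did not overlap either, but the difference was not called (log2 -0.18 ± 0.09, adjusted p = 0.175 by edgeR), and its sign turned with total-count scaling. Of all tested genes 20.2% had every DKO library above every SKO library and 19.4% the reverse, against 8 and 12 of these 35.

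The 3 chains of C1q, which binds antibody on its targets and starts the classical pathway, are made in liver mainly by macrophages. Their genes lie side by side on the minus strand of chromosome 4, with C1qb at 136880129 to 136886187, C1qc at 136889804 to 136893065 and C1qa at 136895917 to 136898803. C1qa was 63.4, 52.2 and 63.9 CPM in SKO and 128, 84.9 and 117 CPM in DKO. It rose by 0.88 ± 0.15 (log2, adjusted p = 0.00739 by edgeR), with every DKO library above every SKO library. C1qb was 81.8, 58.9 and 71.7 CPM in SKO and 135, 89.3 and 125 CPM in DKO (log2 0.72 ± 0.18, adjusted p = 0.0289 by edgeR). C1qc was 77.6, 60.8 and 68.4 CPM in SKO and 129.5, 85.6 and 119 CPM in DKO (log2 0.69 ± 0.16, adjusted p = 0.0208 by edgeR). The chains kept nearly the same order of libraries, with DKO replicate 2 the lowest DKO library for each. The ratio of C1qc to C1qb, in CPM, was 0.948 to 1.03 in SKO and 0.95 to 0.961 in DKO, so these ranges overlap. That of C1qa to C1qb was 0.775 to 0.891 in SKO and 0.93 to 0.951 in DKO, higher in each DKO library. The calls for C1qb and C1qc ended on leaving out either of SKO replicates 2 and 3 or either of DKO replicates 1 and 3 (adjusted p up to 0.0901 and 0.0667 by edgeR), whereas C1qa stayed called whichever library was left out (up to 0.0273).

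Fcna (chromosome 2, 25624666 to 25628030), the gene of ficolin A, another lectin made by macrophages, did not pass the test. It was 46.2, 41.4 and 38.8 CPM in SKO and 47.8, 37.5 and 47.2 CPM in DKO, and these ranges overlapped (log2 0.07 ± 0.11, adjusted p = 0.683 by edgeR).

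Of the 4 proteases that recognition molecules activate, only Masp2 was called. That is 25%, near the 20.0% called over all genes tested. Masp2 (chromosome 4, 148602554 to 148615499) encodes the lectin-pathway protease that cleaves C4 and C2. It was 195, 212 and 219 CPM in SKO and 116, 124 and 139 CPM in DKO, with no overlap, and fell by 0.72 ± 0.09 (log2 with its SE, adjusted p = 0.000697 by edgeR). Of its exon bases 54.9% also lie in exons of Tardbp on the opposite strand, and the sources used here do not say whether the counting used the strand. Tardbp was 77.8 to 85.0 CPM in all 6 libraries and was not called (adjusted p = 0.964 by edgeR). Masp1, which encodes the partner protease MASP-1 and other products of the same gene, was 230, 300.4 and 282 CPM in SKO and 252, 249 and 263 CPM in DKO (log2 -0.09 ± 0.10, adjusted p = 0.592 by edgeR). The C1 proteases are encoded by C1ra and C1s1, neighbours 6.90 kb apart on chromosome 6. C1ra was 133, 168 and 171 CPM in SKO and 144, 142 and 151 CPM in DKO (log2 -0.11 ± 0.10, adjusted p = 0.464 by edgeR). C1s1 was 359, 324 and 343 CPM in SKO and 320.3, 343 and 357 CPM in DKO (log2 -0.01 ± 0.09, adjusted p = 0.957 by edgeR). For these 3 genes the groups overlapped.

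Among the components that form the C3 and C5 convertases, C4b was the 1 gene of 7 that was called. That is 14.3%, below the 20.0% called over all genes tested. C4b (chromosome 17, 34728380 to 34743882) encodes complement C4. It was 1056, 1171 and 1572 CPM in SKO and 812, 784 and 811 CPM in DKO. The DKO libraries lay close together and below all SKO libraries, and C4b fell by 0.66 ± 0.14 (log2 with its SE, adjusted p = 0.011 by edgeR). The call ended with total-count scaling (log2 -0.44, adjusted p = 0.0501 by edgeR). C4a, a near-identical neighbour 65.2 kb away that is annotated here as a processed transcript and is known for the sex-limited protein, had only 85 to 149 counts per library. It was 5.82 to 9.48 CPM in SKO and 4.41 to 5.52 CPM in DKO (log2 -0.58 ± 0.19, adjusted p = 0.0589 by edgeR). C4a was called lower without a filter (adjusted p = 0.00763 by edgeR) and without SKO replicate 2 (log2 -0.75, 0.0325). Reads that fit both copies may have been dropped or split. With both summed as 1 gene the log2 fold change was -0.66 (adjusted p = 0.0108 by edgeR).

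C3 (chromosome 17, 57203970 to 57228136), the central component on which all pathways converge, was 5312, 5602 and 6899 CPM in SKO and 5559, 3883 and 4372 CPM in DKO. DKO replicate 1 lay within the SKO range and the other DKO libraries below it. The difference was not called (log2 -0.37 ± 0.16, adjusted p = 0.141 by edgeR), and without DKO replicate 1 it was (log2 -0.52, adjusted p = 0.031 by edgeR), as it also was with DESeq2 (DESeq2 adjusted p = 0.0417) and without a filter (adjusted p = 0.0207 by edgeR). C2, the protease of the classical convertase, was 52.0, 60.7 and 63.8 CPM in SKO and 43.4, 51.5 and 51.9 CPM in DKO (log2 -0.27 ± 0.10, adjusted p = 0.0789 by edgeR). It was called without a filter and without SKO replicate 1 (adjusted p = 0.0207 and 0.036 by edgeR). Cfb, which encodes factor B, the protease of the alternative convertase, was 5.28 to 6.76 CPM in SKO and 4.67 to 6.35 CPM in DKO (log2 -0.17 ± 0.17, adjusted p = 0.529 by edgeR). A read-through gene, Gm20547, covers 79.5% of the exon bases of Cfb and 42.8% of those of C2 on the same strand, and it had 0 counts in every library. Reads in the shared exons may therefore be missing from the counts of both genes, and the low value of Cfb is not taken as the level of its mRNA.

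The other convertase genes come from other cells. Cfd, which encodes factor D (adipsin), a protease abundant in fat, was 11.96, 2.19 and 5.18 CPM in SKO and 3.41, 5.08 and 0.779 CPM in DKO. The libraries of each group differed more than the groups (log2 -1.03 ± 0.86, adjusted p = 0.464 by edgeR). The adipocyte gene Adipoq was 1.72 CPM in SKO replicate 1, the library with the highest Cfd, and at most 0.21 CPM in the others, and its part in the spread of Cfd was not tested. Cfp (chromosome X), which encodes properdin, the stabiliser of the alternative convertase made by myeloid cells, was 34.9, 26.8 and 35.05 CPM in SKO and 47.8, 34.0 and 44.7 CPM in DKO. It was not called (log2 0.39 ± 0.15, adjusted p = 0.101 by edgeR), but was called without DKO replicate 2, with total counts and without a filter (adjusted p = 0.0149, 0.0293 and 0.000608 by edgeR).

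The terminal pathway held the largest fall. Hc (chromosome 2, minus strand, 34983331 to 35061438) is the mouse gene of complement C5, whose cleavage releases the fragment C5a and starts the attack complex. Hc was 722, 879 and 1077 CPM in SKO and 226, 185 and 231 CPM in DKO. The highest DKO library was well below the lowest SKO library, and Hc was 4.17-fold lower in DKO (log2 -2.06 ± 0.16, adjusted p = 6.12e-05 by edgeR). Of the 13986 genes tested, 29 had a more negative log2 fold change. Falls of at least 2-fold were called for 1.27% of all genes tested, and for Hc, C8a and C9 among these 35. Rises of at least 2-fold were called for 4.10%, and among these 35 for Serping1 and the receptor genes C3ar1 and C5ar1. Itgam passed the same thresholds, but it reached the count level of the filter in the DKO libraries alone.

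C8 consists of 3 chains, alpha, beta and gamma, and C9 polymerises into the pore. C8a (chromosome 4, 104815679 to 104876398) was 645, 825 and 942 CPM in SKO and 373, 373 and 436 CPM in DKO. It fell by 1.03 ± 0.14 (log2 with its SE, adjusted p = 0.00118 by edgeR), with no overlap. C9 (chromosome 15, 6445327 to 6498751) was 558, 611 and 667 CPM in SKO and 259, 328 and 300.3 CPM in DKO. Its groups lay further apart than the spread within either, and it fell by 1.05 ± 0.11 (log2 with its SE, adjusted p = 0.000317 by edgeR). C8g (chromosome 2, 25498651 to 25501719) was 392, 370 and 330.5 CPM in SKO and 215, 287 and 264 CPM in DKO. C8g fell by 0.51 ± 0.12 (adjusted p = 0.0141 by edgeR), and lost its call without SKO replicate 2 (0.0556). C8b (chromosome 4, 104766317 to 104804548) was 346, 454 and 495 CPM in SKO and 239, 285 and 344 CPM in DKO. SKO replicate 1 and DKO replicate 3 nearly met, and C8b fell by 0.58 ± 0.16 (adjusted p = 0.0389 by edgeR). That call ended on leaving out either of SKO replicates 2 and 3 or either of DKO replicates 1 and 2 (adjusted p up to 0.119 by edgeR) and with total counts.

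C8a and C8b lie 11.1 kb apart and point towards each other. Per kb of exon, the ratio of C8a to C8b was 1.27 to 1.33 in SKO and 0.887 to 1.09 in DKO, so it was lower in each DKO library, whereas the ratio of C8g to C8b overlapped between the groups (1.14 to 1.93 and 1.31 to 1.72).

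C6 and C7 were not called. C6 (chromosome 15, 4727175 to 4814967), the first protein to join C5b, was 249, 347 and 371 CPM in SKO and 276, 345 and 330 CPM in DKO (log2 -0.02 ± 0.15, adjusted p = 0.929 by edgeR), with full overlap. Per kb of exon, Hc stood above C6 in every SKO library (ratio 1.44 to 1.65) and below it in every DKO library (0.304 to 0.465). C7, which encodes the next protein of the complex and neighbours C6 at 174 kb, had 8 to 34 counts per library, and was 0.439 to 1.14 CPM in SKO and 0.83 to 1.43 CPM in DKO (log2 0.50 ± 0.38, adjusted p = 0.39 by edgeR). At this depth a modest difference in C7 was not detectable.

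**Figure D2:**
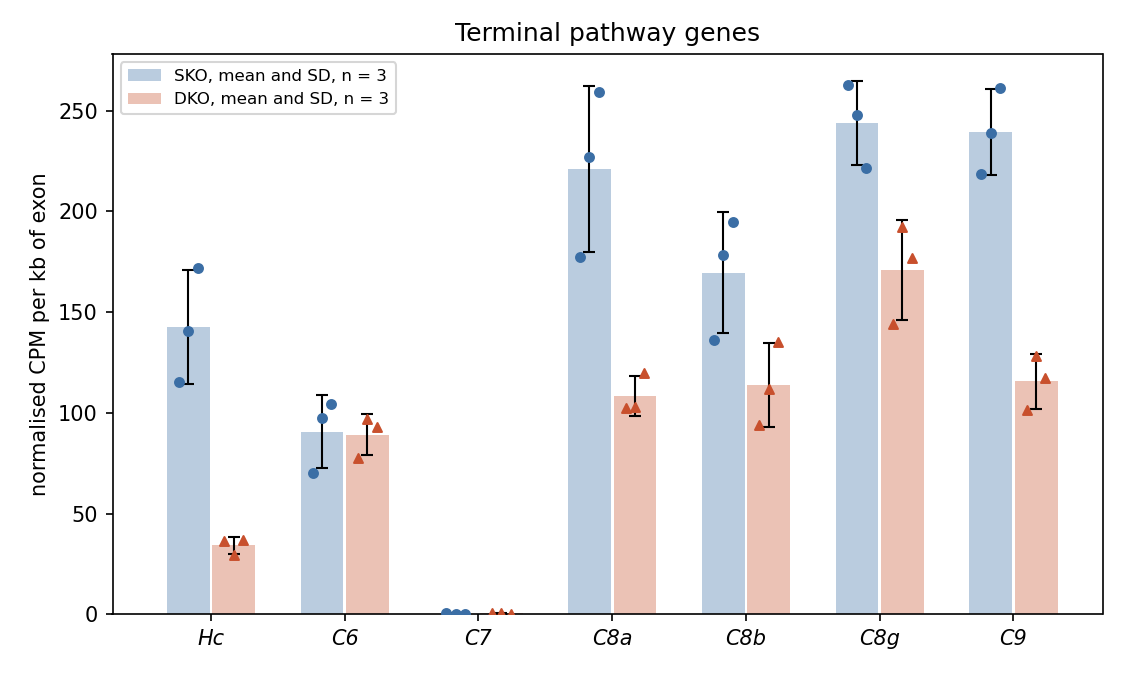
Levels of the 7 terminal pathway genes in normalised CPM per kb of annotated exon, with bars at the mean of 3 libraries, error bars of 1 SD and a point for each library. Hc dropped from 142 ± 28.4 to 34.1 ± 4.02, below C6, which stood at 90.6 ± 18.1 and 89.1 ± 10.1, and C7 is near 0 in both groups.

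The soluble regulators went in both directions. Serping1 (chromosome 2, 84765387 to 84775444) encodes the C1 inhibitor, a serpin that blocks C1r, C1s and the MASPs as well as kallikrein. Serping1 was 67.0, 74.2 and 85.7 CPM in SKO and 207, 200.5 and 142 CPM in DKO. Every DKO library was above every SKO library, and Serping1 was 2.42-fold higher in DKO (log2 1.28 ± 0.15, adjusted p = 0.00132 by edgeR). It was the only hepatocyte-made gene of the 22 that was called higher, and it is known to be expressed also by fibroblasts and macrophages. Per kb of exon its ratio to C1s1, a protease that it inhibits, was 0.251 to 0.336 in SKO and 0.535 to 0.87 in DKO.

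Clu (chromosome 14, 65968483 to 65981547) encodes clusterin, a chaperone that binds the soluble terminal complex. It was 1406, 1675 and 1893 CPM in SKO and 1087, 775 and 938 CPM in DKO, without overlap, and fell by 0.83 ± 0.15 (log2 with its SE, adjusted p = 0.00521 by edgeR). Vtn (chromosome 11), which encodes vitronectin, the other soluble inhibitor of the terminal complex, was 2121, 2555 and 2664 CPM in SKO and 2391, 2532 and 2528 CPM in DKO (log2 0.02 ± 0.12, adjusted p = 0.918 by edgeR). Cfi, the gene of factor I, which cleaves C3b and C4b, was 531, 685 and 639 CPM in SKO and 606, 546 and 578 CPM in DKO (log2 -0.10 ± 0.11, adjusted p = 0.567 by edgeR). C4bp, the gene of the C4b-binding protein that serves as its cofactor, was 804, 784 and 788 CPM in SKO and 855, 899.998 and 970.4 CPM in DKO. The DKO libraries of C4bp lay above the SKO libraries, but it was called with total-count scaling alone among the 12 alternatives (log2 0.42, adjusted p = 0.00609 by edgeR, against log2 0.20 ± 0.09 and 0.167).

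None of the 3 genes of membrane regulators was called, where 20.0% of all genes tested were. Cd55, the decay-accelerating factor, was 27.9, 24.1 and 25.2 CPM in SKO and 20.8, 20.1 and 25.3 CPM in DKO (log2 -0.22 ± 0.11, adjusted p = 0.169 by edgeR). Cd59a, which blocks pore formation by C9, was 47.8 to 67.0 CPM in SKO and 46.0 to 56.6 CPM in DKO (log2 -0.19 ± 0.13, adjusted p = 0.349 by edgeR). Cr1l, the rodent regulator Crry, was 40.3 to 42.5 CPM in SKO and 39.9 to 42.2 CPM in DKO, with a coefficient of variation of 2.59% and 2.96% (log2 -0.02 ± 0.07, adjusted p = 0.873 by edgeR).

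The genes of the 3 receptors rose in DKO from low levels. C3ar1 (chromosome 6, 122847138 to 122856161), the receptor of C3a, was 4.90, 4.44 and 5.75 CPM in SKO and 14.9, 10.2 and 11.7 CPM in DKO. It rose 2.44-fold (log2 1.29 ± 0.17, adjusted p = 0.000966 by edgeR) and stayed called under all 12 alternatives. C5ar1 (chromosome 7, 16246743 to 16259540), the receptor of C5a, was 1.91, 1.65 and 1.01 CPM in SKO and 5.47, 2.30 and 3.89 CPM in DKO (log2 1.36 ± 0.35, adjusted p = 0.0256 by edgeR). Its call ended on leaving out either of SKO replicates 2 and 3 or either of DKO replicates 1 and 3 (adjusted p up to 0.0823 by edgeR). Itgam (chromosome 7, 128062640 to 128118491), the alpha chain of complement receptor CR3, had 4, 10 and 8 counts in SKO and 33, 19 and 17 counts in DKO (log2 1.33 ± 0.38, adjusted p = 0.0328 by edgeR). It reached the count level of the filter in the DKO libraries alone. Its call held without DKO replicate 2 but ended without any other library (up to 0.107) and with DESeq2. A read-through gene with 0 counts, Gm49368, covers 68.7% of the exon bases of Itgam, so its counts may rest on the remaining bases.

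**Figure D3:**
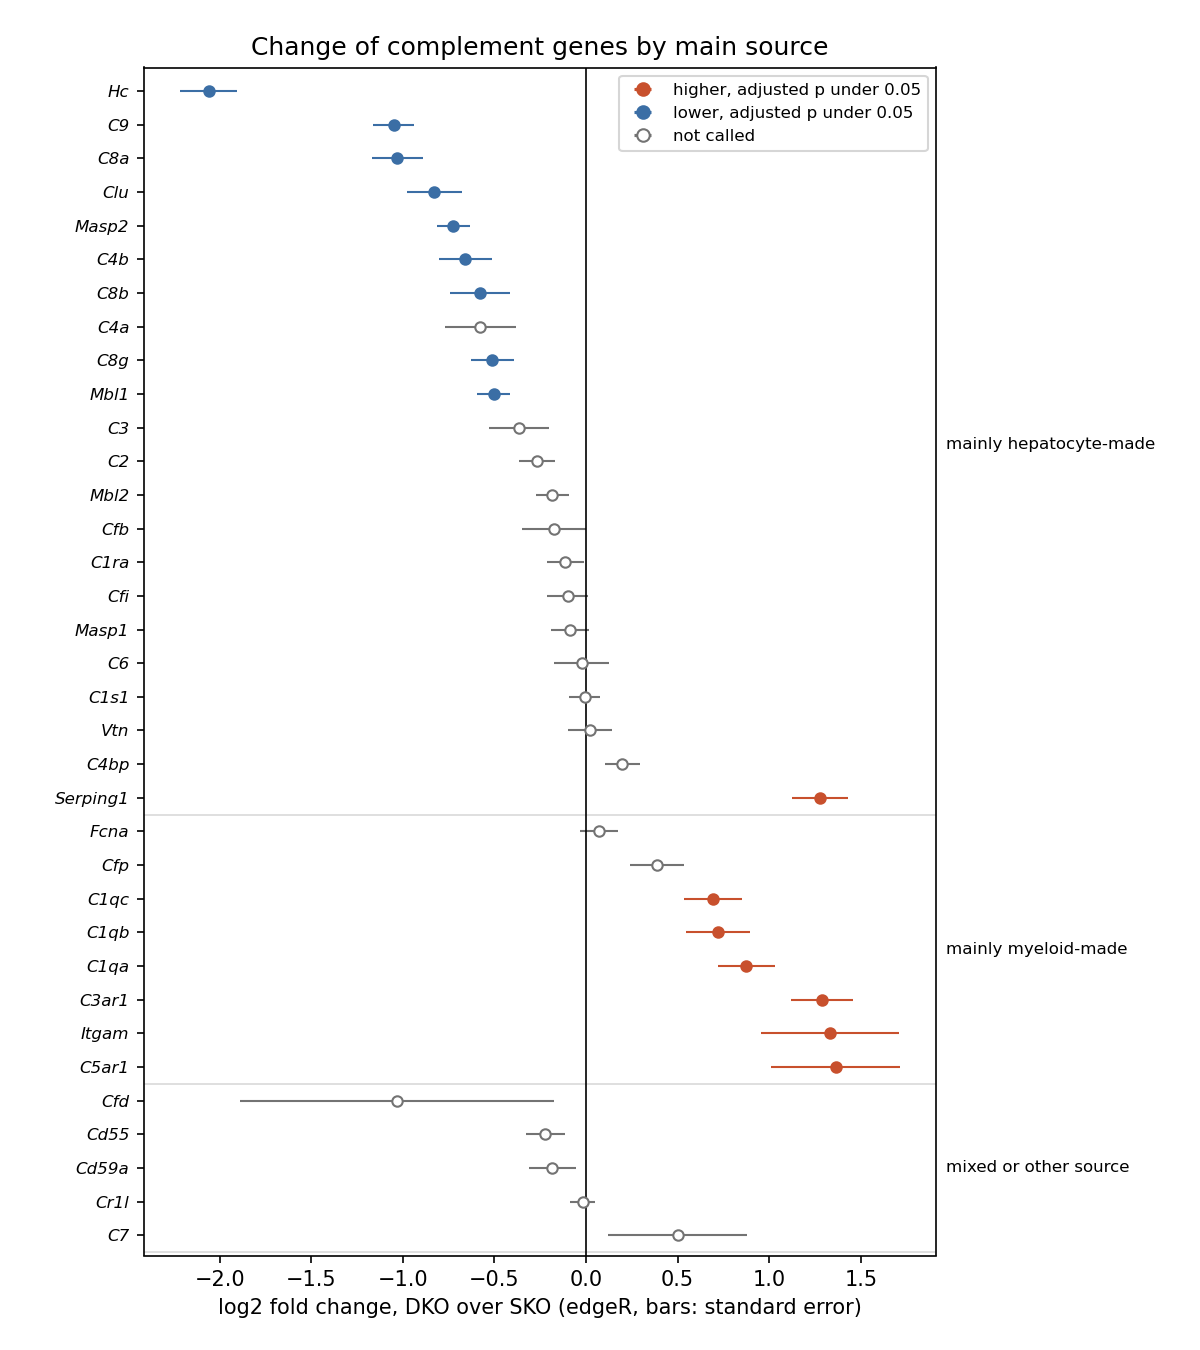
Log2 fold change, DKO over SKO, of the 35 complement genes with its standard error, sorted within main source, with filled points for an edgeR adjusted p under 0.05. Hepatocyte-made genes run from -2.06 (Hc) to 1.28 (Serping1), and the myeloid-made genes from 0.07 (Fcna) to 1.36 (C5ar1).

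Macrophage markers moved with the myeloid-made complement genes. Of 10 macrophage markers, 4 rose and none fell (Adgre1, Cd68, Marco and Lyz2), with a median log2 fold change of 0.56. Over all genes tested 10.3% were called higher. The Adgre1 call ended without SKO replicate 2, SKO replicate 3 or, separately, DKO replicate 3 (adjusted p up to 0.0668 by edgeR), and the other 3 held whichever library was left out. Their summed level was 681 to 856 CPM in SKO and 846 to 1304 CPM in DKO, ranges that meet, and none of the 10 was at 0. The sum of the 3 C1q genes was 172 to 223 CPM in SKO and 260 to 392 CPM in DKO. Divided by the macrophage marker sum of the same library it was 0.253 to 0.26 in SKO and 0.301 to 0.319 in DKO. The ratio was thus higher in each DKO library, by 1.20-fold on average, where the C1q sum itself was 1.69-fold higher. That result depends on the markers summed. Mpeg1, the largest of them in SKO, hardly moved (means of 190 and 193 CPM). Adgre1, Lyz2, Cd68 and Marco were 1.64- to 2.23-fold higher in DKO, and the remaining markers 1.32- to 1.48-fold. C1q is therefore not shown to rise beyond macrophage markers. Within DKO, replicate 1 was the highest library for all 8 myeloid-made genes, and replicate 2 the lowest for 7 of 8. The macrophage marker sum also had DKO replicate 1 highest (1304 CPM) and DKO replicate 2 lowest (846 CPM). This order is not particular to macrophages. The sums of stellate cell, cholangiocyte, and monocyte and neutrophil markers had it too, whereas those of endothelial and hepatocyte markers were highest in DKO replicate 3. How much of the rise in the 8 myeloid-made genes goes with macrophage content was not tested. Of 8 markers of monocytes and neutrophils, 5 were tested and Ccr2 rose (log2 1.03 ± 0.31, adjusted p = 0.0416 by edgeR). With 1 of 5 called, this list stood at the share of all genes tested (20.0%). The Ccr2 call ended with limma-voom and on leaving out any SKO library or DKO replicate 1 (log2 0.63 without DKO replicate 1, adjusted p up to 0.113 by edgeR). Sums of these 8 markers were 7.44 to 8.50 CPM in SKO and 9.43 to 19.4 CPM in DKO, and Ly6g was at 0 in all libraries except SKO replicate 1.

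**Figure D4:**
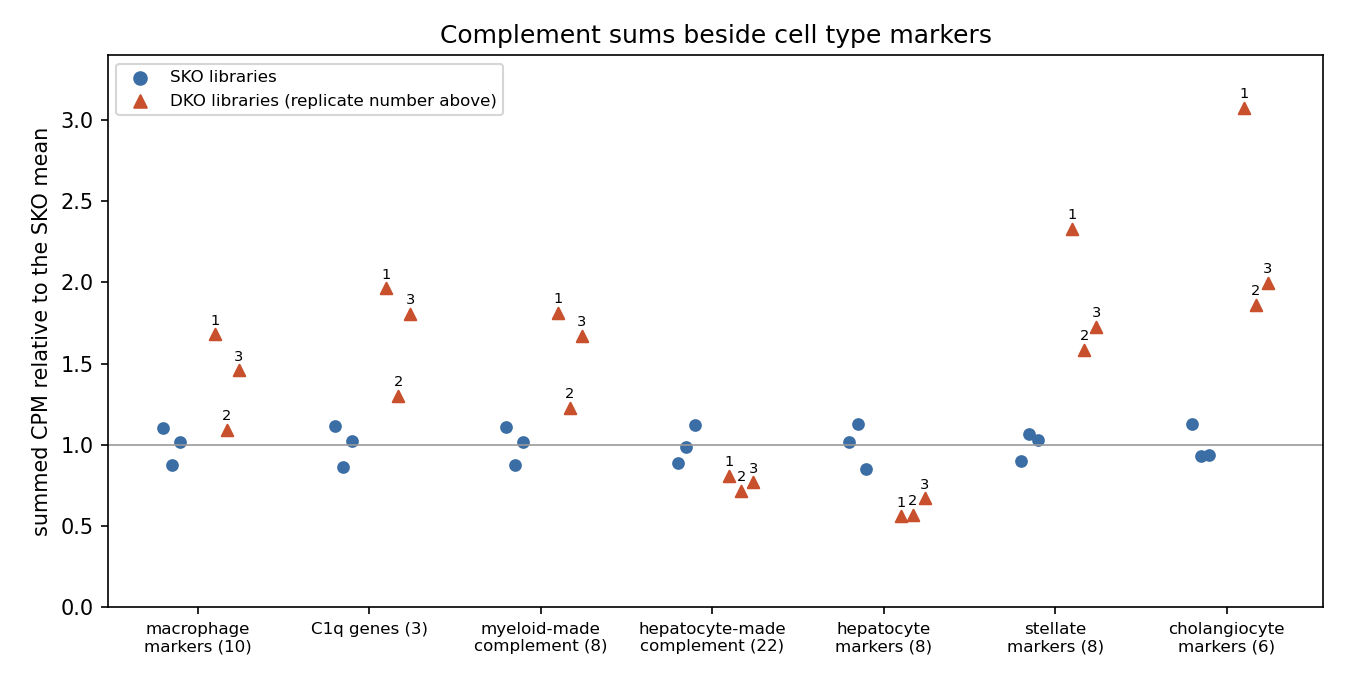
Summed CPM of complement genes by main source and of marker lists, each divided by its mean over the 3 SKO libraries, with DKO replicate numbers above the triangles and the number of genes in brackets. Within DKO, replicate 1 is highest and replicate 2 lowest for both the macrophage markers (846 to 1304 CPM in DKO) and the C1q genes (260 to 392 CPM in DKO). The stellate and cholangiocyte markers have the same order.

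Marker levels of other cells also differed beside the hepatocyte-made genes. Of 8 hepatocyte markers, 5 were called lower (Alb, Ttr, Apoa1, Apob and Serpina1c) and none higher. Their sum, mostly Alb, was 84178 to 111496 CPM in SKO and 55117 to 66070 CPM in DKO. Not all markers went down, as Tat had a positive value that was not called (log2 0.59 ± 0.38, adjusted p = 0.328 by edgeR). The sum is thus no measure of hepatocyte content. The sum of the 22 hepatocyte-made complement genes was 15918 to 20216 CPM in SKO and 12896 to 14529 CPM in DKO. Hnf4a, the hepatocyte transcription factor, was 634 to 842 CPM in SKO and 718 to 830 CPM in DKO and was not called (adjusted p = 0.599 by edgeR). Of 8 stellate cell and fibroblast markers, 6 rose, with sums of 357 to 422 CPM in SKO and 628 to 924 CPM in DKO. Of 6 cholangiocyte markers, 4 rose, with sums of 61.0 to 73.7 CPM in SKO and 122 to 201 CPM in DKO. One of them, Cldn4, reached the count level of the filter in the DKO libraries alone, and without it 3 of 5 rose. On leaving out each library in turn, the calls that held every time were 1 of the 5 hepatocyte markers (Serpina1c), 2 of the 6 stellate cell and fibroblast markers (Dcn and Lum) and 1 of the 4 cholangiocyte markers (Spp1). Serping1, beside these, was highest in DKO replicates 1 and 2, and its relation to those cells was not tested. None of 6 endothelial markers was called. Over all genes tested 10.3% were called higher and 9.70% lower.

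Among the SKO libraries, replicate 1 was the lowest for 17 of the 22 hepatocyte-made genes and replicate 3 the highest for 15. The same order was not counted over all genes tested, so it may not be particular to these genes.

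Compared per kb of exon, Vtn (1205 ± 141 CPM per kb, SD, n = 3) and C3 (1155 ± 164) had the highest levels of the 35 genes in SKO, and these did not differ beyond their spread. In DKO, Vtn stood at 1224 ± 39.6 and C3 at 895 ± 168 CPM per kb. Clu came at rank 3 in SKO at 482 ± 71.0 and rank 4 in DKO at 272 ± 45.4, below Mbl2 at 326 ± 27.1. Hc went from rank 12 to rank 21, and Serping1 from rank 21 at 32.5 ± 4.04 to rank 17 at 78.8 ± 15.4 CPM per kb. The exon length used is the union over all transcripts of a gene, less the bases shared with another gene on the same strand. That left 0.579 kb for Cfb, 2.21 kb for C2 and 1.57 kb for Itgam, whose levels per kb hold only if no read in the shared bases was counted.

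Other complement genes outside the 35 were followed in a further list of 23, of which 16 were tested, 4 were higher and 3 lower. The called genes made up 43.75% of the 16, against 20.0% of all genes tested. The lower genes were C1rl, a C1r-like protease (log2 -0.70 ± 0.08, adjusted p = 0.000566 by edgeR), Colec10, a collectin subunit (log2 -0.83 ± 0.09, adjusted p = 0.000382 by edgeR), and Cpn2, the regulatory subunit of the carboxypeptidase N that trims C3a and C5a (log2 -0.63 ± 0.10, adjusted p = 0.00288 by edgeR). The higher genes were the integrin chains Itgb2 (log2 1.02 ± 0.18, adjusted p = 0.0056 by edgeR) and Itgax (0.988 to 2.25 CPM in SKO and 4.79 to 8.91 CPM in DKO, adjusted p = 0.00399 by edgeR), which pair in complement receptor CR4, Cd93 (log2 0.61 ± 0.14, adjusted p = 0.0141 by edgeR) and the pentraxin Apcs (log2 0.85 ± 0.21, adjusted p = 0.0278 by edgeR). The call for Cd93 ended without SKO replicate 2 or 3 (adjusted p up to 0.0631 by edgeR), and that for Apcs without SKO replicate 1 or 2 or DKO replicate 1 or 3 (up to 0.096), while the other 5 held whichever library was left out. Not called were Colec11 (log2 0.22), Colec12 (log2 -0.17) and C5ar2, the second C5a receptor (log2 0.40). Nor were Vsig4, the Kupffer cell receptor of C3b (log2 0.52), Cd46 (log2 0.57), Cd59b (log2 -0.68) and Susd4 (log2 -0.21). Cpn1, the catalytic subunit of carboxypeptidase N (log2 -0.22), and Crp (log2 -0.13) were not called either. Vsig4 was called higher with total counts, without a filter and without DKO replicate 2 (adjusted p = 0.0271, 3.85e-07 and 0.00393 by edgeR). It was also called with DESeq2 (DESeq2 adjusted p = 0.0146). Colec11, C5ar2 and Cd46 were called higher with total counts, and Colec11 also with upper-quartile factors. Cd59b was called lower without a filter, Susd4 without DKO replicate 2 and Cpn1 with DESeq2.

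Of 16 genes of transcription factors and cytokine signalling parts known to act on complement genes in liver, 1 was called. That is 6.25%, below the 20.0% called over all genes tested. Creb3l3, a liver-enriched transcription factor bound to the ER membrane, was 460.3 to 483 CPM in SKO and 372 to 378 CPM in DKO (log2 -0.33 ± 0.08, adjusted p = 0.0195 by edgeR). The call ended with total counts (log2 -0.11, adjusted p = 0.314 by edgeR) and on leaving out SKO replicate 2 (0.0728) or, in another fit, DKO replicate 3 (0.0678). Stat3, the main mediator of interleukin-6 signals, was 128 to 143 CPM in SKO and 156 to 175 CPM in DKO (log2 0.24 ± 0.08, adjusted p = 0.0585 by edgeR). Cebpa was not called (log2 -0.26 ± 0.10, adjusted p = 0.0881 by edgeR), nor was Cebpb (log2 0.22 ± 0.09, adjusted p = 0.113 by edgeR). Stat3 was called higher with upper-quartile factors and with total counts (adjusted p = 0.0264 and 0.00647 by edgeR). Cebpb was called higher with total counts (adjusted p = 0.0141 by edgeR). Cebpa was called lower with DESeq2 (DESeq2 adjusted p = 0.031) and without DKO replicate 1 (adjusted p = 0.0298 by edgeR). These are mRNA levels and do not measure the activity of the factors.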

How the data were processed

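RNA was extracted with Trizol and libraries were made by standard Illumina methods, per the labels' protocols. Each library has its own deposited table of counts, which the authors made per Ensembl gene without normalisation. Listed in the submitters' processing notes are cutadapt 1.13, STAR, HTSeq 0.6.1p1, DESeq2 and build mm10. The sources used here do not give their settings, the annotation release or the use of strand. Libraries were grouped by the genotype label, and replicate numbers follow accession order. Symbols, coordinates and exons came from GENCODE M21 (54165 of 54232 identifiers matched), and promoters from RefSeq (GRCm38.p6).

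Counts were filtered with filterByExpr (minimum count 10), scaled with TMM factors and tested with glmQLFit and glmQLFTest, robust, in edgeR 4.0.16 (R 4.3.3), DKO against SKO, with Benjamini-Hochberg adjustment over all 13986 genes tested and a threshold of 0.05. Median BCV (biological coefficient of variation) came to 0.109. Normalised CPM are counts over the library total times its TMM factor, and the SE is the log2 fold change divided by the square root of F. The scripts were tested on simulated data. Chi-square over its degrees of freedom was 11.2 to 33.2 between libraries of 1 group, so they differed by more than counting error. Whether any of these libraries share an animal or an RNA sample was not tested. Alternatives were 3 other scalings, no filter, DESeq2 1.42.0, limma-voom (limma 3.58.1) and leaving out each library. All 35 members were named whatever their result, with the tested genes of the further complement list and the called genes of the regulator list plus Stat3, Hnf4a, Cebpa and Cebpb. Members and lists were chosen with earlier results of these data known.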

Additional observations from a re-analysis of the deposited data

How the results depend on the processing

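Of the 16 called complement genes, 9 (C1qa, Mbl1, Masp2, Hc, C8a, C9, Serping1, Clu and C3ar1) were called in the same direction under all 12 alternatives, and 7 (C1qb, C1qc, C4b, C8b, C8g, C5ar1 and Itgam) lost the call in at least 1. On leaving out 1 library in turn, calls higher in DKO numbered 3 to 8 against 7 among the 35 genes, 2 to 7 against 6 among the myeloid-made genes and 2 to 5 against 4 in the further complement list. Calls lower in DKO numbered 8 to 10 against 9. Over all genes, 674 to 1569 were higher and 745 to 1200 lower, both fewest without SKO replicate 2, against 1446 and 1357. With total counts 3859 genes were higher and 538 lower, with 8 higher in the further complement list and 2 among the hepatocyte-made genes (C4bp beside Serping1). The log2 fold changes of 10 genes that were not called turned sign. With total counts this was so for Mbl2 (0.0343), C1ra (0.107), C1s1 (0.208), Masp1 (0.131), Cfb (0.0512), C6 (0.191), Cfi (0.122), Cd59a (0.0349) and Cr1l (0.201), and with upper-quartile factors for C1s1 (0.0524), C6 (0.0376) and Cr1l (0.0426). On leaving out a library the values crossed 0 for C1s1 (-0.0537 to 0.0329), C6 (-0.18 to 0.0877) and Vtn (-0.0729 to 0.0855). Outside the 35 genes, signs turned with total counts for Colec12 (0.0486), Susd4 (0.0109), Crp (0.0815), Nr1h4 (0.1996) and Tardbp (0.216), and with upper-quartile factors for Nr1h4 (0.0438) and Tardbp (0.0565). On leaving out a library Nr1h4 ran from -0.066 to 0.0264 and Tardbp from -0.0447 to 0.0178. Total counts raise every value in DKO by construction. Upper-quartile factors also moved the median gene upward, to 0.0676 against 0.0059 with TMM factors (log2, DKO over SKO). The cause of the changes on leaving out a library was not tested. No paired analysis was possible because the labels give no replicate numbers that the groups share. Genes with a mean under 10 CPM in SKO (C4a, Cfb, Cfd, C7, C3ar1, C5ar1 and Itgam) rest on few counts.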
